A study of Mus musculus with 16 samples.

Results

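The difference between the liver response of sons and that of daughters to bisphenol A (BPA) given before birth was measured gene by gene, as the BPA effect in sons minus the BPA effect in daughters. All 16 of the 16 liver RNA libraries of the study enter this difference: 4 exposed and 4 control sons, and 4 exposed and 4 control daughters. Of 24062 gene symbols in the count table, 13482 had enough counts to be tested.

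BPA, a building block of polycarbonate plastic, can occupy estrogen receptors and some other nuclear receptors. Adult mouse liver is strongly dimorphic between the sexes: the pattern of growth hormone release, acting through the transcription factor STAT5, sets different levels of cytochrome P450, sulfotransferase and carrier protein genes in males and females. Nuclear receptors and NRF2, a stress-responsive transcription factor, control the enzymes by which hepatocytes clear foreign chemicals.

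The animals were C57BL/6J offspring, 24 weeks old at dissection. The 4 groups were daughters and sons exposed to BPA in utero, and daughters and sons of the corn oil control, the solvent given without BPA. All groups share the strain, the tissue and the age, and for the BPA dose and the litters the labels used here state nothing. Nothing states that the animals of a group came from separate litters, so p-values measure the spread between these samples. Values in lists are given in the order control daughters 1, 4, 17 and 18, then exposed daughters 1, 8, 9 and 14. Control sons 2, 3, 7 and 10 follow, then exposed sons 3, 4, 12 and 15. The numbers are the sample IDs of the labels, called replicate numbers below.

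Libraries held 19.4 to 32.2 M counts. The exposed libraries were the deeper ones in each sex, at 28.6 to 32.2 against 19.4 to 26.8 M in daughters and 25.3 to 28.9 against 21.1 to 23.6 M in sons. Xist and Ddx3y, transcribed from the inactive X and from the Y chromosome, matched the labelled sex in every library, and 12 of 12 hepatocyte marker genes were detected. Ddx3y had 20 counts in control daughter 17 and 5 in exposed daughter 9, against 3100 to 4299 in sons. Exposed son 12 stood apart on principal component 3 (at -50.27, with the other libraries between -18.21 and 23.01) and had the lowest quality weight by limma-voom (0.532), next to exposed daughter 1 (0.537).

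No gene passed for the difference between the sexes. With edgeR's quasi-likelihood test and a threshold of 0.05 on the Benjamini-Hochberg adjusted p, which is what "passed" means throughout, 0 of 13482 genes (0%) were higher or lower in sons minus daughters. At an unadjusted p under 0.05 there were 1019 genes (7.56%), 408 higher in sons minus daughters (3.03%) and 611 lower (4.53%). DESeq2 called 36 genes (0.267% of the 13474 it gave an adjusted p), 16 higher (0.119%) and 20 lower (0.148%), and limma-voom with quality weights called 1 (0.00742%). The lowest adjusted p by edgeR was 0.253, shared by 3 genes, Ehd4, Med12l and Mpp4. Values of the difference are therefore given below as measured, with their errors, and "higher" or "lower" in sons minus daughters names the sign of a value that did not pass.

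Within each sex many genes passed. In daughters 2773 genes (20.6%) differed between exposed and control animals, of which 1366 (10.1%) rose and 1407 (10.4%) fell. Sons had 2041 such genes (15.1%), of which 860 (6.38%) rose and 1181 (8.76%) fell. The count of fallen genes in sons was 699, 726, 734 and 758 without exposed son 3, exposed son 15, control son 7 and control son 2, respectively. After each library was thinned to the smallest total, 1305 rose and 1330 fell in daughters, and 978 rose and 883 fell in sons.

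The sexes mostly shared the direction of their response. Because the exposed libraries were the deeper ones in both sexes, a part of depth in this shared direction cannot be told apart. Of the genes that passed, 1364 did so in both sexes (49.2% of the daughters' genes and 66.8% of the sons'), and 1363 of these moved the same way. Of the 1409 genes that passed in daughters but not in sons, 89.7% had the same sign in sons, and of the 677 that passed in sons but not in daughters, 90.4% had the same sign in daughters. Over all tested genes 73.3% had the same sign, and the log2 effects of the sexes, which share no library, had a Pearson r of 0.41 and a Spearman rho of 0.56 across genes, which are not independent replicates.

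Genes that rose in daughters had a median log2 effect of 0.52 there and 0.30 in sons, and genes that fell in daughters had -0.44 there and -0.35 in sons. Genes that rose in sons had 0.49 there and 0.45 in daughters, and genes that fell in sons had -0.43 there and -0.38 in daughters. Each set was picked on the effect in the first-named sex, so these medians do not show that the response of either sex was larger. Among the genes that passed in daughters but not in sons, 26.6% had an unadjusted p under 0.05 for the difference, against 26.4% of those that passed in sons but not in daughters, 4.11% of those that passed in both and 4.08% of those that passed in neither. The difference is built from the same libraries as the effects within the sexes, so these shares are a description.

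**Figure D1:**
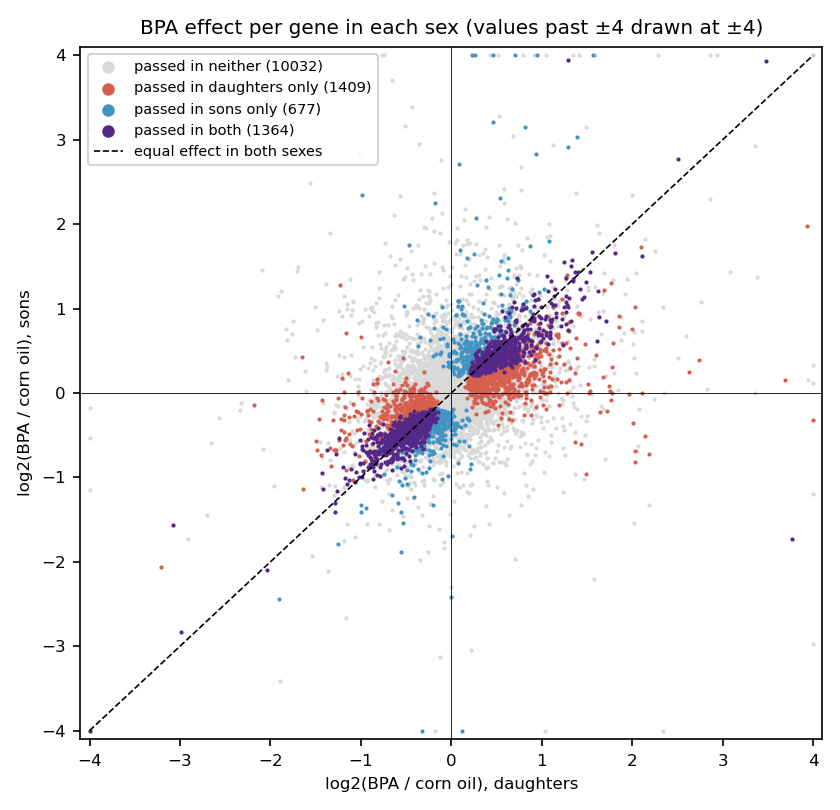
Log2 effect of BPA in daughters (x axis) against sons (y axis) for 13482 genes, coloured by the sex in which a gene passed, with values past 4 either way drawn at the edge. Most of the 1364 genes that passed in both sexes (violet) lie near the dashed line of equal effects, and the genes that passed in 1 sex spread to either side of it on the same side of 0.

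How small a difference these libraries could show was read from the standard error (SE) of each gene. The median SE was 0.21 on the log2 scale for sons minus daughters, against 0.148 for the effect in daughters and 0.149 in sons, and its quartiles were 0.141 and 0.375. The median 95% interval reached 0.446 to either side, whereas the median size of the measured differences was 0.168. A gene standing alone at the top of the list would have needed a p of 3.71e-06, which is 6.9 SE and a 2.73-fold difference at the median SE. That requirement was a median of 31.2-fold for the 1545 genes under 1 CPM (counts per M counts of the library), 4.18-fold at 1 to 10 CPM, 2.05-fold at 10 to 100 CPM, 1.95-fold at 100 to 1000 CPM and 2.4-fold for the 121 genes at 1000 CPM and over.

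The intervals also bound what the sexes could differ by. They held 0 in 12463 genes. In 9473 genes (70.3%) the whole interval lay within 2-fold either way, and in 6036 (44.8%) within 1.5-fold. The measured difference was at least 2-fold in 599 genes, of which 203 had an unadjusted p under 0.05, and the interval lay wholly past 2-fold in 20 genes.

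**Figure D2:**
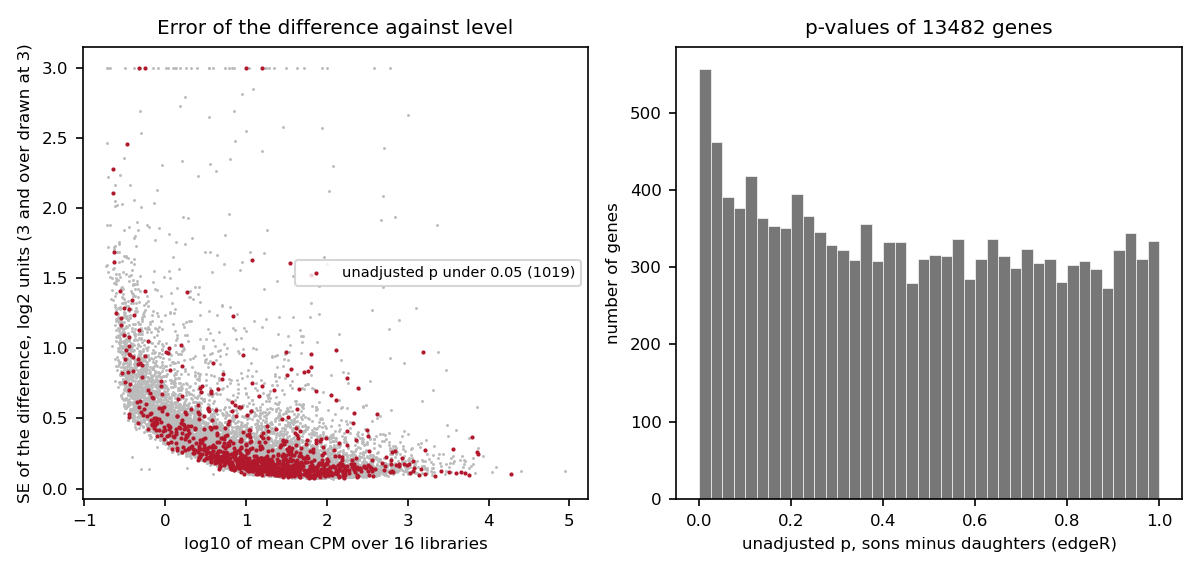
Left, SE of the difference in log2 units (3 and over drawn at 3) against log10 of the mean CPM, 1 point per gene, with the 1019 genes at an unadjusted p under 0.05 in red. Right, histogram of the unadjusted p-values of all 13482 genes in bins of 0.025, with 46.2% of genes at a p over 0.5. Counts are highest in the lowest bins and stay somewhat raised up to a p of about 0.3.

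Function was described with 32 gene lists, each by its counts and its median difference, beside a median of -0.01 over all tested genes. As the baseline for the list counts, 6996 of all 13482 tested genes were below 0 in sons minus daughters and 6486 above. At an unadjusted p under 0.05 by edgeR, 4.53% of all genes were lower and 3.03% higher. In daughters 10.1% of all genes rose and 10.4% fell, and in sons 6.38% rose and 8.76% fell. Sons minus daughters was lowest for the list of xenobiotic metabolism (-0.43), followed by heat shock (-0.33), and highest for the acute phase and interferon lists (both 0.28). The plot of list medians gives all of them.

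**Figure D3:**
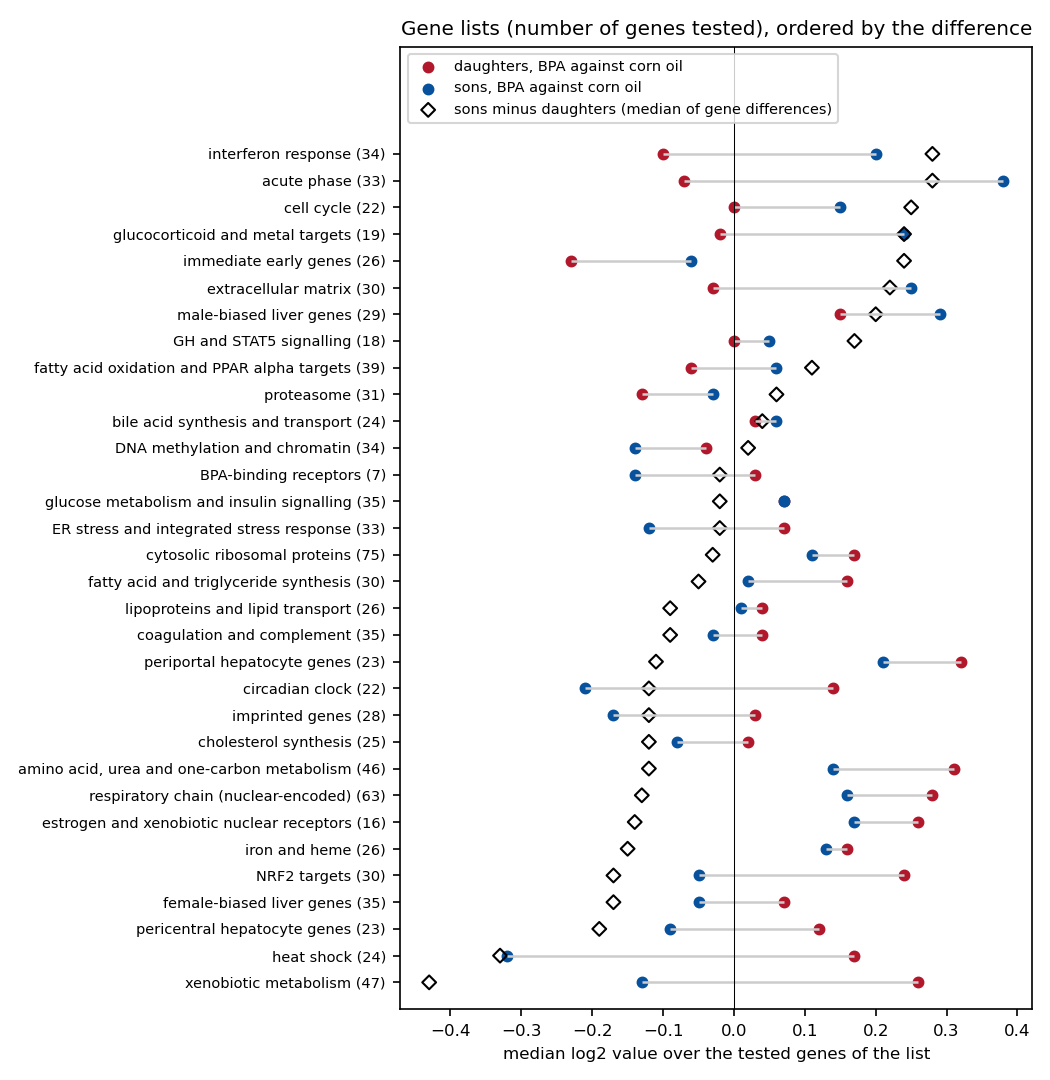
Median log2 value over the tested genes of each of the 32 lists, as the effect of BPA in daughters (red) and in sons (blue) and as sons minus daughters (diamonds, the median of the gene differences, which need not equal the difference of the medians). The xenobiotic metabolism and heat shock lists lie at the bottom with -0.43 and -0.33, and acute phase and interferon response at the top with 0.28.

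The list that clears foreign chemicals stood furthest from the median of all genes. Of 47 tested genes of xenobiotic metabolism, which covers cytochromes P450, conjugating enzymes and exporters, 40 were lower in sons minus daughters and 14 (29.8%) had an unadjusted p under 0.05, all 14 lower. In daughters 13 of the 47 rose and 2 fell, with a median effect of 0.26. In sons 2 rose and 5 fell, with a median of -0.13. In control animals the list was higher in sons than in daughters by a median of 0.60, and in exposed animals by 0.28. The median difference lay between -0.52 (without control daughter 1) and -0.30 (without exposed son 12) when single libraries were left out. By library, the list's median distance from the control mean of its own sex was 0.16, 0.30, 0.16 and 0.47 in the exposed daughters and -0.04, -0.07, -0.54 and -0.15 in the exposed sons, so exposed son 12 lay far below the other 3.

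Glutathione transferases of the alpha class, which couple glutathione to electrophiles, belong to that list. Gsta2 stood at 12.5, 5.85, 6.57 and 7.21 CPM in control daughters and 29.7, 19.1, 14.8 and 23.1 CPM in exposed daughters, and at 35.3, 35.0, 43.9 and 37.3 CPM in control sons and 32.9, 28.5, 11.9 and 25.9 CPM in exposed sons. The daughters' groups did not overlap, with every exposed animal above every control, and the exposed sons all lay below the lowest control son. Gsta2 rose in daughters by 1.43 ± 0.30 (log2, SE, adjusted p = 0.00441), the value in sons was -0.61 ± 0.29 (adjusted p = 0.187), and the difference was -2.04 ± 0.42 (adjusted p = 0.419 by edgeR and 0.00278 by DESeq2). Of its 31-base stretches 60.7% also occur in other genes, and how its counts divide among those genes is uncertain.

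Gsta1, with 92.9% shared sequence, rose in daughters by 1.73 ± 0.44 (adjusted p = 0.012), had -0.21 ± 0.39 in sons and a difference of -1.94 ± 0.58 (adjusted p = 0.507). Gsta4, which acts on products of lipid peroxidation and shares no such stretch, went from 33.2 to 47.3 CPM in control daughters to 43.2 to 65.6 CPM in exposed daughters, and from 62.0 to 83.6 CPM in control sons to 41.4 to 62.4 CPM in exposed sons. It rose in daughters by 0.52 ± 0.16 (adjusted p = 0.0283), had -0.38 ± 0.16 in sons and a difference of -0.89 ± 0.22 (adjusted p = 0.493). The predicted gene Gm10639, with 62.4% shared sequence, had -2.45 ± 0.57 (adjusted p = 0.493 by edgeR and 0.0211 by DESeq2). Gstm4, of the mu class and in no list, was higher in sons minus daughters by 0.81 ± 0.19 (adjusted p = 0.493 by edgeR and 0.0293 by DESeq2): it rose in sons by 0.76 ± 0.14 (adjusted p = 0.00201), with 33.4 to 39.0 CPM in exposed against 16.9 to 24.8 CPM in control sons, and had -0.05 ± 0.14 in daughters.

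Cyp3a11, a target of the pregnane X receptor, stood at 4150, 2550, 3340 and 3480 CPM in control daughters, 7230, 5270, 3990 and 4650 CPM in exposed daughters, 12400, 9540, 13400 and 9880 CPM in control sons and 9020, 11000, 8740 and 7880 CPM in exposed sons. Exposed daughters overlapped control daughters in 1 animal, and the sons' groups overlapped as well. It rose in daughters by 0.64 ± 0.18 (adjusted p = 0.0213), had -0.30 ± 0.18 in sons (adjusted p = 0.301) and a difference of -0.95 ± 0.26 (adjusted p = 0.498). Ces1b, a carboxylesterase gene in no list and with 23.9% shared sequence, stood at 108 to 124 CPM in control daughters and 155 to 185 CPM in exposed daughters, but at 107 to 117 and 94.2 to 121 CPM in control and exposed sons. It rose in daughters by 0.53 ± 0.08 (adjusted p = 0.00024) and its difference was -0.57 ± 0.11 (adjusted p = 0.332 by edgeR and 0.00431 by DESeq2). Ces1c, of the same family with 23.3% shared sequence, had a difference of -0.52 ± 0.13 (adjusted p = 0.493 by edgeR and 0.0253 by DESeq2).

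Targets of NRF2 share the alpha-class glutathione transferases with the list above. Of 30 tested, 22 were lower in sons minus daughters and 6 (20%) had an unadjusted p under 0.05, all lower. In daughters 11 of the 30 rose and 0 fell, and in sons 3 rose and 2 fell. Nfe2l2, which encodes NRF2 itself, fell in sons by 0.59 on the log2 scale (SE 0.11, adjusted p = 0.00233), from 85.4 to 101 CPM in controls to 51.1 to 70.7 CPM in exposed sons, and had -0.13 ± 0.11 in daughters (adjusted p = 0.446). Its difference was -0.46 ± 0.15 (adjusted p = 0.545). The list's median difference of -0.17 was -0.10 without control son 7 and -0.09 without exposed son 12.

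Heat shock genes, whose products are chaperones that hold and refold damaged proteins, were the second lowest list. Of 24 tested, 21 were lower in sons minus daughters and 6 (25%) had an unadjusted p under 0.05, all lower. In daughters 3 rose and 2 fell, where 10.1% and 10.4% of all genes did. In sons 0 rose and 5 fell, where 6.38% and 8.76% of all genes did. The inducible HSP70 genes Hspa1a and Hspa1b, the HSP40 co-chaperone gene Dnajb1 and the HSP70 co-chaperone gene Bag3 had the lowest p.

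The promoters of these genes are shown because heat shock factor binds inverted repeats of GAA, written here as GAANNTTC and TTCNNGAA (each its own reverse complement), and because the HSP70 pair is nearly identical there. Windows run from 250 bases before to 50 after the RefSeq start in GRCm38.p6, and capitals mark matches. Of all 32544 windows of 300 bases, 15.1% hold a match to either motif, 7.89% to GAANNTTC and 8.55% to TTCNNGAA.
Hspa1a (chr17:34972107-34972406, minus strand): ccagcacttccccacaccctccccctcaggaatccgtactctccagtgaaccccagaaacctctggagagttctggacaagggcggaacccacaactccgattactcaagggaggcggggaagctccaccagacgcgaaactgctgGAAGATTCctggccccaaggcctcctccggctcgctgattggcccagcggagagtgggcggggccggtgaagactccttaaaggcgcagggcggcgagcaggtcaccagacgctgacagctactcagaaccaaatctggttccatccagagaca
Hspa1b (chr17:34959189-34959488, minus strand): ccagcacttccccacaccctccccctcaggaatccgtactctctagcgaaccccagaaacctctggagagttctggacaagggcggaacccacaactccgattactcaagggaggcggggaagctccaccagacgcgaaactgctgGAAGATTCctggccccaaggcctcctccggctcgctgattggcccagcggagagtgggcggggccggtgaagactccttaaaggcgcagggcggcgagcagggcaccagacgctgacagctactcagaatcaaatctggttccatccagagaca
Bag3 (chr7:128523333-128523632, plus strand): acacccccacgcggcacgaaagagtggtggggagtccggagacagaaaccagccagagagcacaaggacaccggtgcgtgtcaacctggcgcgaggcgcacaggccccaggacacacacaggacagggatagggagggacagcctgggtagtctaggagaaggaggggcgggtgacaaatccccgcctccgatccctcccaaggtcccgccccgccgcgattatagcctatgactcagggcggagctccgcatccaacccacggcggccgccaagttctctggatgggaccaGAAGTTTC
Each of the 3 holds 1 match, and the Hspa1a and Hspa1b windows differ at 4 of 300 positions (98.7% identical). Neither of the 2 windows of Dnajb1 holds a match, which says only that these letters are not there.

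The levels of these genes separated the daughters' groups and divided the control sons. Hspa1b stood at 13, 13.4, 16.4 and 11.2 CPM in control daughters, 36.8, 57.7, 58.9 and 91.1 CPM in exposed daughters, 25.1, 24.0, 147 and 140 CPM in control sons and 76.5, 23.9, 66.1 and 36.2 CPM in exposed sons. Every exposed daughter lay above every control daughter, and control sons 2 and 3 lay near the lowest exposed son and control sons 7 and 10 lay above all others. Hspa1b rose in daughters by 2.18 ± 0.60 (adjusted p = 0.022), had -0.73 ± 0.57 in sons (adjusted p = 0.453) and a difference of -2.91 ± 0.83 (adjusted p = 0.498). Hspa1a, with 70.1% of its sequence shared, followed it closely, rising by 2.03 ± 0.59 in daughters (adjusted p = 0.0274), -0.82 ± 0.56 in sons (adjusted p = 0.375) and a difference of -2.85 ± 0.81 (adjusted p = 0.498). Hspa1b shares 68.1%, and how reads divide within the pair is uncertain.

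Dnajb1 and Bag3 have no such copy. Dnajb1 stood at 13.1, 16.7, 16.0 and 13.1 CPM in control daughters, 32.1, 35.1, 33.9 and 41.5 CPM in exposed daughters, 21.1, 17.2, 37.0 and 37.3 CPM in control sons and 35.8, 24.0, 29.8 and 23.4 CPM in exposed sons. The daughters' groups were wide apart, and the control sons again split into 2 low and 2 high animals that enclosed the exposed sons. It rose in daughters by 1.28 ± 0.22 (adjusted p = 0.000953), had 0.00 ± 0.22 in sons (adjusted p = 0.994) and a difference of -1.27 ± 0.31 (adjusted p = 0.493 by edgeR and 0.0304 by DESeq2). Bag3 had 20 to 22.9 CPM in control and 22.5 to 27.2 CPM in exposed daughters, against 29.7, 35.5, 63.6 and 56.7 CPM in control sons and 17.9 to 35.2 CPM in exposed sons. It fell in sons by 0.89 on the log2 scale (SE 0.23, adjusted p = 0.015), and its difference was -1.11 ± 0.32 (adjusted p = 0.498).

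The control sons also split by the median of the list. That median distance from the control mean was -0.27 and -0.33 in control sons 2 and 3 and 0.34 in each of control sons 7 and 10. The list of ER stress and the integrated stress response, which covers chaperones and signals of the endoplasmic reticulum, divided the same animals, at -0.14 and -0.33 against 0.22 and 0.32, with a median difference of -0.02 over 33 genes. The ER stress list had 19 genes below 0 and 14 above, and 5 (15.2%) at an unadjusted p under 0.05 by edgeR, 4 lower and 1 higher. Dnajb9, a chaperone gene of that list, had 50.5, 46.7, 90.9 and 85.5 CPM in control sons and 38.0 to 44.0 CPM in exposed sons. Its difference was -0.66, or -0.46 without control son 7. The median difference of the heat shock list was -0.20 without control son 7 and -0.21 without control son 10, against -0.33 with all libraries, and -0.53 without both exposed son 12 and exposed daughter 1.

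**Figure D4:**
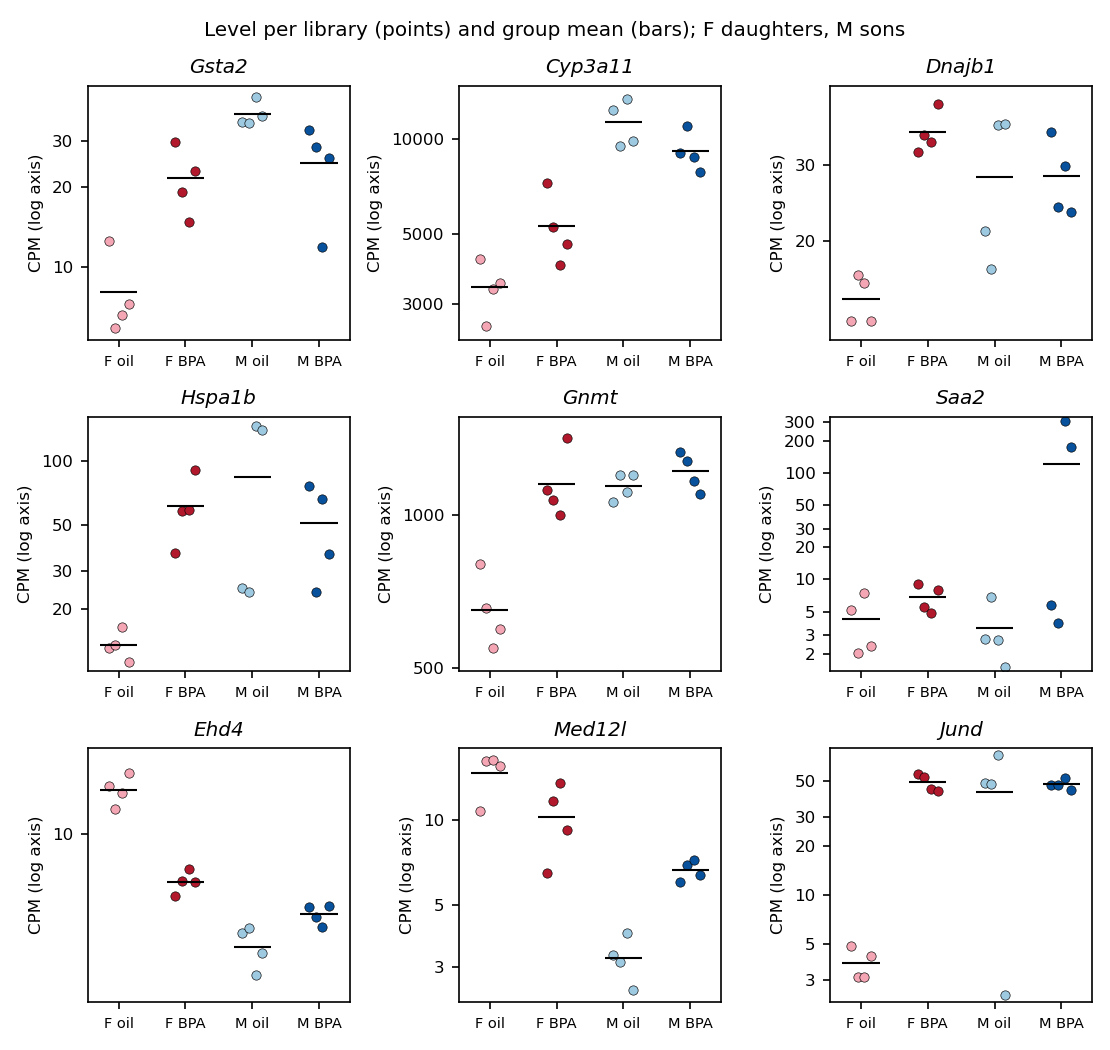
CPM (log axis) of 9 genes in each library (points) and the mean of each group of 4 (bars), with F for daughters and M for sons. Every exposed daughter lies above every control daughter for Gsta2, Dnajb1, Hspa1b and Gnmt, Hspa1b and Dnajb1 show 2 low and 2 high control sons, Saa2 is high in 2 exposed sons, and Jund is low in all control daughters and 1 control son.

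Amino acid, urea and one-carbon metabolism disposes of nitrogen and passes on methyl groups. Of 46 tested genes 13 rose and 2 fell in daughters, and 2 rose and 0 fell in sons. For the difference 33 were lower, and 9 (19.6%) had an unadjusted p under 0.05, 8 of them lower. Gnmt, which methylates glycine and so consumes S-adenosylmethionine, stood at 803, 655, 547 and 598 CPM in control daughters, 1120, 1070, 1000 and 1420 CPM in exposed daughters, 1060, 1200, 1110 and 1200 CPM in control sons and 1330, 1280, 1170 and 1100 CPM in exposed sons. All exposed daughters lay above all control daughters at 1000 CPM and above, and the sons' groups overlapped. The effect was 0.83 ± 0.12 in daughters (adjusted p = 0.000285) and 0.09 ± 0.12 in sons (adjusted p = 0.673), and the difference was -0.73 ± 0.18 (adjusted p = 0.493 by edgeR and 0.0317 by DESeq2).

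Otc, which makes citrulline in the urea cycle, rose in daughters by 0.52 ± 0.11 (adjusted p = 0.00356), from 208 to 289 CPM in controls to 305 to 412 CPM, and had -0.04 ± 0.11 in sons, where controls had 361 to 412 CPM and exposed animals 354 to 399 CPM. Its difference was -0.56 ± 0.15 (adjusted p = 0.498). Uroc1, of histidine breakdown, had a difference of -0.52 ± 0.15 and Pemt, which makes phosphatidylcholine by methylation, of -0.40 ± 0.12 (adjusted p = 0.498 and 0.507). Gls2, the liver glutaminase, went from 101, 171, 120 and 146 CPM to 402, 308, 276 and 311 CPM in daughters and from 121, 213, 268 and 292 CPM to 292, 236, 273 and 177 CPM in sons, a difference of -1.14 ± 0.34 (adjusted p = 0.508). It rose in daughters by 1.27 ± 0.25 (adjusted p = 0.00233), and control son 2 lay below the other control sons. Aspg, an asparaginase gene in none of the lists, rose in both sexes, by 0.92 ± 0.09 in daughters and 0.39 ± 0.09 in sons (adjusted p = 8.22e-06 and 0.00737), and its difference was -0.53 ± 0.12 (adjusted p = 0.493). The list's median difference of -0.12 was -0.22 without exposed son 12, -0.06 without exposed son 3 or control son 2 and -0.03 without exposed son 15.

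Nuclear-encoded genes of the respiratory chain moved in both sexes, and their difference was small and of the same sign in most. In daughters 36 of 63 rose and 8 fell, and in sons 23 rose and 8 fell. The difference was below 0 in 58 of the 63, with a median of -0.13, but only 5 (7.94%) had an unadjusted p under 0.05, near the 7.56% of all genes. Sdhb, the iron-sulfur subunit of complex II, rose in daughters by 0.56 ± 0.07 (adjusted p = 0.000108), had 0.18 ± 0.07 in sons (adjusted p = 0.108) and a difference of -0.38 ± 0.10 (adjusted p = 0.498). Ndufa4, of cytochrome c oxidase, rose by 0.75 ± 0.06 in daughters and 0.52 ± 0.06 in sons, and Ndufb8, of complex I, by 0.74 ± 0.10 and 0.43 ± 0.10. Their differences were -0.23 ± 0.09 and -0.31 ± 0.14 (adjusted p = 0.599 and 0.629), and that of Ndufb8 was -0.16 without exposed daughter 14. The median over the list was -0.05 without exposed daughter 14 and also without exposed son 15. Cytosolic ribosomal protein genes, of which 27 of 75 rose and 15 fell in daughters and 21 rose and 13 fell in sons, had a median difference of -0.03, with 0 of 75 at an unadjusted p under 0.05 by edgeR.

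**Figure D5:**
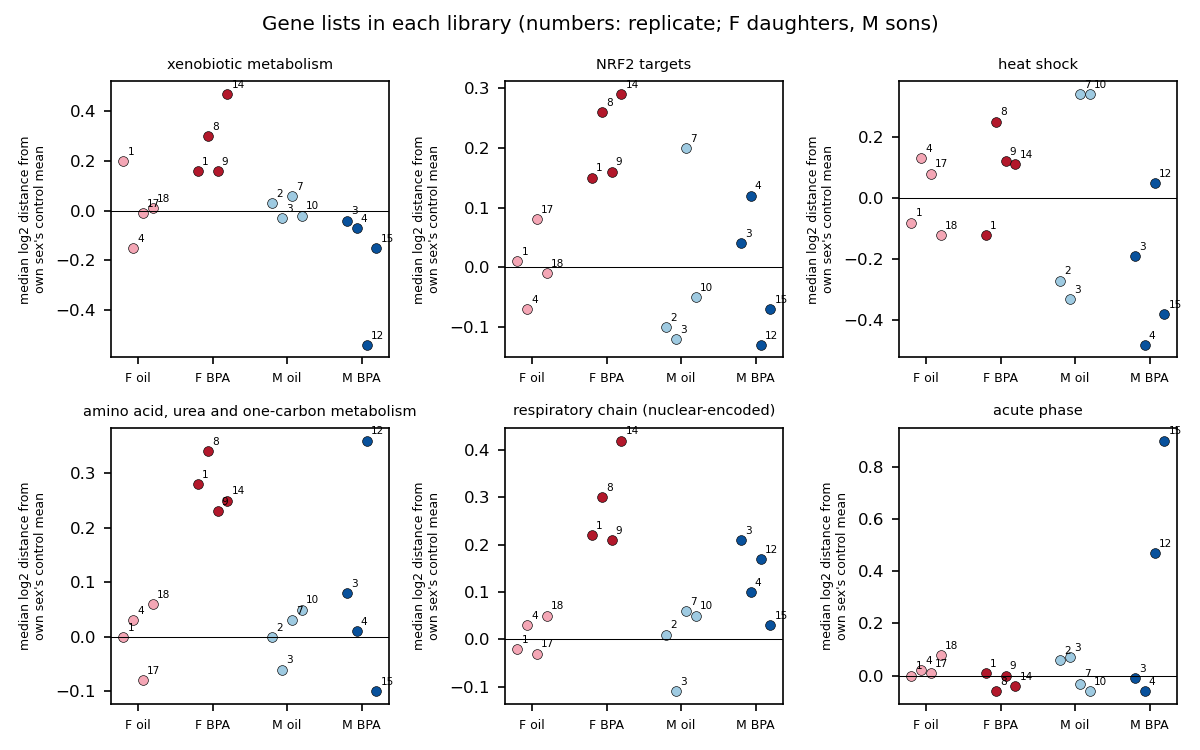
Median log2 distance of 6 gene lists from the control mean of the same sex, 1 point per library, labelled with its replicate number. All exposed daughters lie above 0 in the xenobiotic, NRF2, amino acid and respiratory chain panels, exposed son 12 is lowest in the xenobiotic panel at -0.54, control sons 7 and 10 are both at 0.34 in the heat shock panel, and exposed sons 12 and 15 lie at 0.47 and 0.90 in the acute phase panel.

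Acute phase genes, which hepatocytes switch on under interleukin-6 in inflammation, were high in 2 of the exposed sons, 12 and 15. Of 33 tested, 26 were higher in sons minus daughters, and 7 (21.2%) had an unadjusted p under 0.05, 6 higher and 1 lower. In daughters 0 rose and 0 fell, with a median of -0.07, and in sons 5 rose and 2 fell, with a median of 0.38. Saa2, which encodes a serum amyloid A protein and shares 44.5% of its sequence, stood at 5.22, 2.05, 7.49 and 2.39 CPM in control daughters, 9.12, 5.57, 4.89 and 7.98 CPM in exposed daughters, 2.77, 6.88, 2.71 and 1.52 CPM in control sons and 5.77, 3.94, 306 and 176 CPM in exposed sons. Exposed sons 3 and 4 lay in the range of all other animals, and exposed sons 12 and 15 lay far above it. The effect in sons was 5.14 ± 1.23 (adjusted p = 0.0144), and the difference 4.43 ± 1.61 (adjusted p = 0.576), or 1.47 with quality weights by limma-voom.

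Lcn2, an iron-scavenging lipocalin that neutrophils also carry, had 1.83, 2.27, 23.0 and 20.1 CPM in exposed sons, 0.134 to 3.98 CPM in control sons and 3.36 to 12.4 CPM in daughters of both groups, with a difference of 3.84 ± 1.23 (adjusted p = 0.529). Cebpd, an acute phase transcription factor gene, had a difference of 1.34 ± 0.52 (adjusted p = 0.602), with 24.7 CPM in exposed son 12. Hamp, which encodes the iron hormone hepcidin and shares 33.7% of its sequence, was low in all 4 exposed sons, at 34.1, 49.9, 109 and 59.7 CPM against 165 to 280 CPM in control sons and 179 to 497 CPM in daughters. It fell in sons by 1.89 on the log2 scale (SE 0.34, adjusted p = 0.00256), had -0.56 ± 0.33 in daughters and a difference of -1.33 ± 0.47 (adjusted p = 0.562).

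Neutrophil markers were low in sum. Of 10 markers 9 were in the table and 4 were tested, and none of the 9 was at 0 in every library. All 4 were higher in sons minus daughters, with a median difference of 1.80 and 2 at an unadjusted p under 0.05, and 0 of 4 passed in either sex. The list's median distance from the control mean was 0.06, 1.27, 0.90 and 1.23 in the exposed sons and 1.19 in control daughter 18. Their summed level was 2.83 to 22.3 CPM in control daughters, 2.61 to 4.92 CPM in exposed daughters, 1.61 to 2.23 CPM in control sons and 1.90 to 4.66 CPM in exposed sons. Markers of Kupffer cells and macrophages summed to 306 to 625 CPM in control sons and 375 to 598 CPM in exposed sons. Their part in the acute phase values was not tested. In bulk liver, fewer cells of a type and less RNA per cell cannot be told apart.

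Metallothioneins bind zinc and copper and answer to metals and glucocorticoids. Mt1 stood at 307, 361, 206 and 255 CPM in control daughters, 87.0, 46.5, 69.4 and 47.0 CPM in exposed daughters, 91.0, 142, 64.9 and 64.1 CPM in control sons and 38.2, 33.0, 107 and 150 CPM in exposed sons. The daughters' groups did not overlap. Exposed sons 12 and 15, which were high in Saa2, were the higher exposed sons here too, and control son 3 had 142 CPM. Mt1 fell in daughters by 2.18 on the log2 scale (SE 0.46, adjusted p = 0.00506), had -0.14 ± 0.44 in sons (adjusted p = 0.876) and a difference of 2.03 ± 0.63 (adjusted p = 0.527). Mt2 had a difference of 3.09 ± 0.97 (adjusted p = 0.529), with 73.5% of its exons overlapped by the model Gm45774. The promoter of Mt1 is shown for its 3 matches, in capitals, to TGCNCNC, a loose form of the metal response element core. The search covered both strands, and 51.3% of all windows hold at least 1 match and 7.13% at least 3.
Mt1 (chr8:94178839-94179138, plus strand): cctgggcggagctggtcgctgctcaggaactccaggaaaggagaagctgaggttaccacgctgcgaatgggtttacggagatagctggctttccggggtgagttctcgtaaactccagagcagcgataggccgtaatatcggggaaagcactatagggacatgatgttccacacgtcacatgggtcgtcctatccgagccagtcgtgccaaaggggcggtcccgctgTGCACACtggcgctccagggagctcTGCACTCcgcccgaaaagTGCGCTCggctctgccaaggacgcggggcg

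Glucocorticoid and metal targets as a list had a median difference of 0.24 over 19 genes (0.41 without exposed son 3), with 4 higher and 1 lower at an unadjusted p under 0.05 (26.3%). The lower gene, Hsd11b1, which regenerates active glucocorticoid in hepatocytes, rose in daughters by 0.65 ± 0.13 (adjusted p = 0.0022), from 325 to 430 CPM to 499 to 687 CPM, had 0.05 ± 0.13 in sons and a difference of -0.60 ± 0.18 (adjusted p = 0.5). Igfbp1, an insulin-repressed binding protein gene, rose in sons by 2.07 ± 0.58 (adjusted p = 0.0283), with 204, 204, 414 and 31.4 CPM in exposed against 39.3 to 66.7 CPM in control sons. Exposed son 15 lay below all control sons, and the difference was 1.80 ± 0.79 (adjusted p = 0.634).

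Interferon response genes had a median difference of 0.28 over 34 genes, 28 of them above 0, with 3 (8.82%) at an unadjusted p under 0.05, all higher, a share near the 7.56% of all genes. Ifi27, an interferon-induced gene of mitochondria, rose in sons by 1.34 ± 0.20 (adjusted p = 0.000566), from 13.6, 22.6, 24.4 and 11.7 CPM to 54.6, 37.2, 48.8 and 42.0 CPM, and had 0.39 ± 0.20 in daughters (adjusted p = 0.181). All exposed sons lay above all control sons, and its difference was 0.95 ± 0.28 (adjusted p = 0.498). Isg15 and Usp18, a ubiquitin-like modifier and its protease, had differences of 1.01 ± 0.43 and 0.95 ± 0.42 (adjusted p = 0.619 and 0.629). The exposed sons disagreed on the list as a whole, at 0.46, 0.24, -0.39 and 0.65, and the median difference was 0.47 without exposed son 12, 0.44 without control son 3, 0.18 without exposed son 15, 0.17 without control daughter 1 or exposed daughter 8 and 0.16 without control son 7.

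Lipoprotein genes had a median difference of -0.09 over 26 genes, and 8 (30.8%) had an unadjusted p under 0.05, 3 higher and 5 lower. Apoe, whose protein returns lipoprotein remnants to the liver, stood at 18100, 17500, 18200 and 18600 CPM in control daughters, 16300, 17900, 18300 and 18900 CPM in exposed daughters, 20900, 21200, 23300 and 23600 CPM in control sons and 18400, 16800, 16900 and 16700 CPM in exposed sons. The exposed sons lay below all control sons and in the range of the daughters. Apoe fell in sons by 0.37 on the log2 scale (SE 0.07, adjusted p = 0.00331), had -0.02 ± 0.07 in daughters (adjusted p = 0.879) and a difference of -0.35 ± 0.10 (adjusted p = 0.498 by edgeR and 0.0424 by DESeq2).

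Apoc1, its neighbour in the same gene cluster, fell in sons by 0.29 (SE 0.08, adjusted p = 0.0252) and had a difference of -0.46 ± 0.12 (adjusted p = 0.493 by edgeR and 0.0211 by DESeq2). Apoc3, which encodes an inhibitor of lipoprotein lipase, rose in daughters by 0.56 ± 0.09 (adjusted p = 0.000302) and had a difference of -0.35 ± 0.12 (adjusted p = 0.545), or -0.23 without exposed daughter 14. Leaving out exposed daughter 14 or exposed son 12 brought the list's median to 0.01 and 0.

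Fatty acid genes carried 1 of DESeq2's calls. Acacb, the acetyl-CoA carboxylase that restrains entry of fatty acids into mitochondria, stood at 96.4, 98.4, 110 and 103 CPM in control daughters, 66.9, 133, 103 and 76.7 CPM in exposed daughters, 55.2, 50.6, 66.0 and 41.4 CPM in control sons and 103, 102, 147 and 79.6 CPM in exposed sons. Every exposed son lay above every control son, and the daughters' groups overlapped. It rose in sons by 1.02 ± 0.21 (adjusted p = 0.00508), had -0.10 ± 0.21 in daughters and a difference of 1.12 ± 0.30 (adjusted p = 0.498 by edgeR and 0.0457 by DESeq2). The list of fatty acid and triglyceride synthesis had a median difference of -0.05 over 30 genes, and fatty acid oxidation with PPAR alpha targets 0.11 over 39. The first was -0.18 without exposed daughter 1 and 0.09 without exposed daughter 14, and the second 0.05 without exposed daughter 1 and 0.24 without control son 2. Ehhadh, a peroxisomal oxidation enzyme gene, had 0.69 ± 0.28 (adjusted p = 0.605). Cholesterol synthesis had -0.12 over 25 genes, with 0 at an unadjusted p under 0.05 by edgeR, and 0.23 without exposed daughter 14, which was high in that list (0.56) as exposed son 15 was (0.38). Bile acid synthesis and transport had 0.04 over 24 genes (-0.04 without exposed daughter 1 and 0.11 without exposed son 15), with Slc27a5, a bile acid CoA ligase gene, at -0.41 ± 0.16 (adjusted p = 0.602).

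Of 26 tested iron and heme genes 10 rose and 2 fell in daughters, and 1 rose and 3 fell in sons. The difference was below 0 in 19 of 26, and 4 (15.4%) had an unadjusted p under 0.05, all lower. Markers of erythroid cells and blood lay the other way: of 9 tested, 8 were higher in sons minus daughters, with a median difference of 1.39, and 2 had an unadjusted p under 0.05, 1 in each direction. They summed to 250, 236, 467 and 305 CPM in control sons, 724, 332, 701 and 605 CPM in exposed sons, 135 to 489 CPM in control daughters and 163 to 238 CPM in exposed daughters, and their part in the iron and heme values was not tested. Slc40a1, which encodes the iron exporter ferroportin, rose in daughters by 0.75 ± 0.16 (adjusted p = 0.00447), from 103 to 125 CPM to 181 to 232 CPM, had 0.17 ± 0.16 in sons and a difference of -0.58 ± 0.23 (adjusted p = 0.602). Tmprss6, a protease that restrains hepcidin, and Alad, of heme synthesis, had differences of -0.33 ± 0.14 and -0.42 ± 0.18 (adjusted p = 0.609 and 0.619). These were -0.20 for Tmprss6 without exposed daughter 14 and -0.26 for Alad without exposed son 12. The median difference was -0.15 and became -0.08 without exposed son 3 or exposed son 12 and -0.04 without exposed daughter 14.

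Immediate early genes had a median difference of 0.24 over 26 genes, 0.47 without control son 2 and -0.02 without control daughter 1, whose list median lay 0.75 above the control mean. The difference was above 0 in 16 of the 26 and below 0 in 10. At an unadjusted p under 0.05 by edgeR there were 4 genes (15.4%), 3 higher and 1 lower. The lower gene was Jund, at -3.53 (adjusted p = 0.498), whose levels are given further below. Myc, Gadd45g and Btg2, which act in growth and growth arrest, had differences of 1.45 ± 0.46, 2.16 ± 0.70 and 1.43 ± 0.66 (adjusted p = 0.515, 0.535 and 0.661), and Btg2 had 0.82 without exposed son 12. Myc stood at 11, 5.81, 5.37 and 5.80 CPM in control daughters, 7.62, 3.38, 2.99 and 4.07 CPM in exposed daughters, 2.97, 3.31, 6.46 and 5.28 CPM in control sons and 6.71, 9.32, 6.65 and 9.05 CPM in exposed sons. The exposed sons all lay above the control sons, narrowly, and the daughters' groups overlapped.

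Sex-biased liver genes are those that the growth hormone pattern sets apart. Male-biased genes were higher in sons by a median of 3.10 in controls and 3.00 in exposed animals, and female-biased genes lower in sons by medians of -1.59 and -2.34. Their median differences, 0.20 over 29 genes and -0.17 over 35, were 0.04 and 0.07 without exposed son 12. Without exposed son 4 they were 0.38 and -0.37. Of the 29 male-biased genes 3 rose and 0 fell in daughters and 1 rose and 1 fell in sons, where 10.1% and 6.38% of all genes rose. Cyp4a12a, a fatty acid hydroxylase gene with 62.2% shared sequence, had 0.140, 0.968, 3.77 and 0.181 CPM in control daughters, 0.163 to 0.237 CPM in exposed daughters and 166 to 343 CPM in sons. Its difference of 2.28 ± 0.99 (adjusted p = 0.629) was 0.83 without control daughter 17. Its neighbour Cyp4a12b, with 62.9% shared sequence, had 2.20 ± 0.87, or 0.93 without the same animal. Control daughter 17 also held the 20 Ddx3y counts given above, and a link between these values was not tested. Cyp2a4, a female-biased P450 gene with 58.9% shared sequence, fell in sons by 1.02 on the log2 scale (SE 0.27, adjusted p = 0.0186), from 132 to 248 CPM to 41.5 to 120 CPM, against -0.10 ± 0.26 in daughters, a difference of -0.92 ± 0.37 (adjusted p = 0.605). Cyp2b9, with 26.1% shared sequence, had -1.82 ± 0.72 (adjusted p = 0.602). Cyp17a1 of the same list lay the other way at 1.06, or 0.55 without exposed son 12. Of the 35 female-biased genes 21 were below 0 and 14 above. In daughters 3 of them rose and 1 fell, and in sons 0 rose and 2 fell, where 10.4% and 8.76% of all genes fell. Among the 29 male-biased genes 17 were above 0 and 12 below, with Cyp2u1 at -0.64 (-0.35 without exposed daughter 1). The list of growth hormone and STAT5 signalling had a median of 0.17 over 18 genes, and -0.01 without exposed son 4.

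Of the receptors that BPA can bind, 7 of 9 were tested, and 0 had an unadjusted p under 0.05 by edgeR. Esr1, the estrogen receptor alpha gene, stood at 22.1, 20, 28.8 and 27.7 CPM in control daughters, 28.1, 27.1, 32 and 23.8 CPM in exposed daughters, 16.3, 15.6, 13.8 and 19.3 CPM in control sons and 16.0, 14.3, 21.4 and 18.4 CPM in exposed sons. Exposed and control animals overlapped in both sexes, and the difference was -0.06 ± 0.21 with a 95% interval of -0.50 to 0.38. Esrrg, an estrogen-related receptor gene that binds BPA, had -0.00 ± 0.45 (interval -0.97 to 0.97), with exposed daughter 1 at 2.61 CPM and the other exposed daughters at 11.6 to 12.5 CPM. Nr1i2, the pregnane X receptor gene, had -0.06 ± 0.18 (-0.45 to 0.33), and Thra, a thyroid hormone receptor gene, 0.16 ± 0.18 (-0.23 to 0.54), with 0.07 without control son 10 and 0.30 without control son 3. Esr2 and Gper1, with 6 and 49 counts over all libraries, were too low to test.

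Among 16 tested estrogen-related and xenobiotic nuclear receptors 4 rose in daughters and 1 in sons, where 10.1% and 6.38% of all genes rose. The median difference of the list was -0.14, and -0.02 without control son 2. Rxrb, a partner of many nuclear receptors, rose in both sexes, by 0.58 ± 0.07 in daughters (adjusted p = 5.16e-05) and 0.24 ± 0.07 in sons (adjusted p = 0.0289), with a difference of -0.34 ± 0.10 (adjusted p = 0.498). Ahr, the dioxin receptor gene, rose in daughters by 0.35 ± 0.10 (adjusted p = 0.0264) and had a difference of -0.32 ± 0.15 (adjusted p = 0.642).

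Imprinted genes, expressed from the copy of a single parent and often studied after prenatal exposure, had a median difference of -0.12 over 28 genes (-0.02 without control son 3), with 1 higher and 1 lower at an unadjusted p under 0.05 (7.14%). Slc22a18, an imprinted transporter gene, rose in daughters by 0.78 ± 0.12 (adjusted p = 0.000362), from 28.4 to 34.2 CPM to 44.2 to 59.2 CPM, had 0.23 ± 0.12 in sons (adjusted p = 0.218) and a difference of -0.55 ± 0.17 (adjusted p = 0.511). Sgce, another imprinted gene, had 0.73 ± 0.33 (adjusted p = 0.634). Genes of DNA methylation and chromatin had a median of 0.02 over 34. Setdb1, which methylates histone H3 at lysine 9, stood at 26.5, 24.7, 25.5 and 27.0 CPM in control daughters, 29.3, 29.3, 28.7 and 28.4 CPM in exposed daughters, 33.0, 31.4, 30.4 and 31.9 CPM in control sons and 28.3, 29.0, 26.1 and 26.8 CPM in exposed sons. The groups of each sex did not overlap, in opposite directions: it fell in sons by 0.20 on the log2 scale (SE 0.06, adjusted p = 0.0303) and had 0.16 ± 0.06 in daughters (adjusted p = 0.0662). Its difference was -0.36 ± 0.08 (adjusted p = 0.493 by edgeR and 0.0475 by DESeq2). Hdac1, a histone deacetylase gene with 40% shared sequence, had 0.36 ± 0.10 (adjusted p = 0.498).

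The other lists had median differences between -0.19 and 0.25. Cell cycle genes had 0.25 over 22, extracellular matrix 0.22 over 30, proteasome 0.06 over 31, glucose metabolism and insulin signalling -0.02 over 35, coagulation and complement -0.09 over 35, circadian clock -0.12 over 22, and the periportal and pericentral hepatocyte lists -0.11 and -0.19 over 23 each. By edgeR, 7.56% of all genes had an unadjusted p under 0.05, against 0 genes of extracellular matrix and proteasome. Cell cycle had 1 (4.55%), higher, the clock 2 (9.09%), both lower, and glucose metabolism 4 (11.4%), 3 higher and 1 lower. Coagulation had 6 (17.1%), 5 of them lower, periportal genes 4 (17.4%), 3 of them lower, and pericentral genes 3 (13%), all lower. With single libraries left out, extracellular matrix was 0.01 without control daughter 17 and cell cycle 0.46 without exposed son 12. The clock was 0.07 without exposed daughter 14 and -0.39 without exposed son 15. Pericentral genes were at -0.34 without control daughter 17 and -0.04 without exposed daughter 14, and periportal genes at -0.23 without exposed son 12 and -0.05 without exposed son 15. Coagulation was -0.01 without control son 2, glucose metabolism 0.10 without control son 7, and the proteasome 0.02 without control daughter 17 and 0.15 without control son 7. Per2 of the clock had a difference of -1.45 ± 0.55 (adjusted p = 0.602), and -0.95 without exposed daughter 14. Aldh1b1, a mitochondrial aldehyde dehydrogenase gene of the periportal list, rose in daughters by 1.24 ± 0.24 (adjusted p = 0.00253) and had a difference of -0.90 ± 0.34 (adjusted p = 0.602), or -0.54 without exposed daughter 1.

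Single genes with the lowest p were then taken whatever their function, 12 with a higher and 12 with a lower value in sons minus daughters and a mean of at least 1 CPM. None of the 24 passed by edgeR, and DESeq2 called 19 of them. In all 24 the exposed sons and exposed daughters did not overlap in their log2 distance from their own control mean, as in 14.6% of all tested genes, and the choice of these genes by the same contrast fixes this. Glutathione transferases, carboxylesterases, Gnmt, Aspg and Setdb1 among them are described above.

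Ehd4, an endocytic membrane protein gene, had the lowest p of all. It stood at 12.0, 11, 11.7 and 12.6 CPM in control daughters, 7.93, 8.39, 8.77 and 8.34 CPM in exposed daughters, 6.90, 7.01, 5.89 and 6.39 CPM in control sons and 7.60, 7.31, 7.05 and 7.64 CPM in exposed sons. Exposed daughters lay below and exposed sons just above all controls of their sex, so that the exposed sexes came close to each other. It fell in daughters by 0.50 on the log2 scale (SE 0.08, adjusted p = 0.000611), had 0.18 ± 0.09 in sons (adjusted p = 0.189) and a difference of 0.68 ± 0.12 (interval 0.42 to 0.93, unadjusted p = 3.63e-05, adjusted p = 0.253 by edgeR and 0.00298 by DESeq2).

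Med12l, a subunit gene of the Mediator kinase module, was a female-biased gene that rose in sons. It stood at 10.7, 16.1, 16.3 and 15.5 CPM in control daughters, 6.48, 11.6, 13.5 and 9.19 CPM in exposed daughters, 3.32, 3.13, 3.98 and 2.50 CPM in control sons and 6.03, 6.93, 7.19 and 6.37 CPM in exposed sons. All exposed sons lay above all control sons, and the daughters' groups overlapped through control daughter 1. The effect in sons was 1.04 ± 0.21 (adjusted p = 0.00393), that in daughters -0.52 ± 0.19 (adjusted p = 0.0675), and the difference 1.56 ± 0.29 (adjusted p = 0.253 by edgeR and 0.00138 by DESeq2). Without control daughter 1 its adjusted p by edgeR was 0.0857, the lowest of its leave-one-out values.

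Most of the other higher genes fell in daughters or rose in sons. Plscr1, a phospholipid scramblase gene, fell in daughters by 0.53 (SE 0.14, adjusted p = 0.0139) and had 0.41 ± 0.14 in sons (adjusted p = 0.0656), a difference of 0.94 ± 0.20. Pnpla7, a lysophospholipase gene, fell in daughters from 120 to 188 CPM to 87.4 to 107 CPM and had -0.02 ± 0.12 in sons (difference 0.70 ± 0.17). H3f3b, which encodes the replacement histone H3.3, fell in both sexes, by 1.25 in daughters and 0.54 in sons on the log2 scale (difference 0.71 ± 0.16). Hist1h1c, a linker histone gene, rose in sons from 20.8 to 27.9 CPM to 32.7 to 58.9 CPM (0.87 ± 0.21, adjusted p = 0.012), with -0.38 ± 0.21 in daughters (difference 1.25 ± 0.30). Bcmo1, which cleaves beta-carotene, fell in daughters by 0.70 on the log2 scale and had 0.36 ± 0.19 in sons (difference 1.07 ± 0.26). Zfp941, a zinc finger gene, fell in daughters from 2.51 to 3.44 CPM to 0.847 to 1.63 CPM and had 0.395, 0.492, 1.87 and 1.94 CPM in exposed sons against 0.313 to 0.625 CPM in control sons (difference 2.51 ± 0.64). DESeq2 called these 6 genes. Stx4a, a membrane fusion gene, Arsg, a lysosomal sulfatase gene, and Ccdc66, with 39.1% of its exons overlapped by Fam208a, had differences of 0.62 ± 0.16, 0.93 ± 0.24 and 0.91 ± 0.24, and Stx4a passed in neither sex (adjusted p = 0.0653 in daughters and 0.0794 in sons).

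The remaining lower genes mostly rose in daughters. Zbtb40, a zinc finger gene, rose in both sexes, from 4.01 to 6.52 CPM to 14.0 to 16.8 CPM in daughters and from 5.14 to 8.94 CPM to 10.7 to 13.3 CPM in sons, a difference of -1.0 ± 0.24. Ccdc117 rose in daughters by 0.98 ± 0.17 (adjusted p = 0.000842) and had -0.05 ± 0.17 in sons, where the controls split as for the heat shock genes, at 26.4, 26.3, 39.6 and 44.0 CPM (difference -1.02 ± 0.24). Taf1c, of the RNA polymerase I initiation complex, went from 0.513 to 0.967 CPM to 2.15 to 2.67 CPM in daughters, with -0.08 ± 0.28 in sons (difference -1.85 ± 0.39). DESeq2 called all 3. The RNA-binding protein genes Rbm4 and Rbm14 had differences of -0.67 ± 0.16 and -0.73 ± 0.18. DESeq2 also called Rbm4 (adjusted p = 0.0443) and not Rbm14 (adjusted p = 0.0797). The model Gm21992 overlaps 60.5% of the exons of Rbm4 and 21% of those of Rbm14.

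Beyond these, DESeq2's calls included genes that were at 0 in some libraries and well above 0 in others of the same group. Mup6, a major urinary protein gene with 24.3% shared sequence, had 279, 0, 687 and 448 CPM in exposed sons, 162 CPM in control son 10 and 21.1 CPM in control daughter 4, and was at 0 in the other 11 libraries. Kctd12, with 64.2% of its exons overlapped by the model Gm26778, had 19.5 to 28.5 CPM in all 8 controls, 37.8 and 34.6 CPM in exposed daughters 1 and 8, and 0 in exposed daughters 9 and 14 and in all 4 exposed sons. It passed as fallen in sons (adjusted p = 0.0297), and its difference passed by DESeq2 (adjusted p = 5.85e-18) but not by edgeR (adjusted p = 0.548). Scd3 was at 147 CPM in exposed son 4 and at 0 in the other 7 sons. Gm7030, Evi2b, Gm8898 and Gm11127 were of the same kind, with 70.2% and 98.5% of the exons of Gm7030 and Evi2b overlapped and 93.9% and 87.8% of the sequence of Gm8898 and Gm11127 shared. S100a8, a neutrophil marker, was at 0 in 10 libraries and at most at 5.76 CPM. Differences of these genes are not given here, since they depend on how 0 is handled.

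Mpp4, a scaffold protein gene, was the only gene that passed in both sexes in opposite directions. It had 0.0466, 0, 0 and 0.0362 CPM in control daughters, 0.148 to 0.645 CPM in exposed daughters, 0.302 to 1.61 CPM in control sons and 0.186 to 0.303 CPM in exposed sons. It rose in daughters (adjusted p = 0.00526) and fell in sons by 1.73 on the log2 scale (SE 0.55, adjusted p = 0.0456), at levels under 1 CPM in all libraries but control son 3. Kif20a, a cell division kinesin gene with 29.3% of its exons overlapped, Car1, a carbonic anhydrase gene with 20.1% shared sequence, and Mroh6 were also called by DESeq2, at 2.22 ± 0.50, -2.71 ± 0.69 and -2.37 ± 0.50 by edgeR, which gave adjusted p = 0.493, 0.498 and 0.419.

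Leaving out a single library brought out 4 genes, 1 for each of 4 controls, and every one of them had 2 distinct levels among controls of the same sex. Utp14b, a ribosome assembly gene, had 9.18, 0.697, 0.483 and 0.435 CPM in control daughters and 7.14 to 14.8 CPM in the other 12 libraries. Its difference was -2.65 (adjusted p = 0.568) with all libraries and -4.93 (adjusted p = 2.5e-07) without control daughter 1, and it was the gene that limma-voom called (adjusted p = 0.0462). Jund, an AP-1 transcription factor gene with 52.6% of its exons overlapped by the model Gm11175, had 4.85, 3.10, 3.09 and 4.20 CPM in control daughters, 43.5 to 55.6 CPM in exposed daughters, 48.7, 48.1, 72.7 and 2.41 CPM in control sons and 44.0 to 52.4 CPM in exposed sons. It passed without control son 10 (difference -3.93, adjusted p = 4.86e-07) and not with it (-3.53, adjusted p = 0.498), while DESeq2 called it with all libraries (adjusted p = 0.0235).

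Snrpn, an imprinted splicing factor gene, had 0, 0, 4.11 and 0 CPM in control daughters and 3.47 to 8.45 CPM in the other 12 libraries, and it passed without control daughter 17 (adjusted p = 1.57e-06). Snurf, which is read from the same transcript and whose exons are overlapped to 100%, had the reverse pattern, with 5.78, 6.08, 0 and 6.63 CPM in control daughters and at most 2.85 CPM elsewhere. Whether reads had been assigned to Snurf in place of Snrpn was not tested. Morf4l2, a chromatin protein gene, had 44.4, 40.3, 43.7 and 108 CPM in control daughters and 72.1 to 113 CPM elsewhere, and passed without control daughter 18 (adjusted p = 0.00227). Snrpn, Snurf and Morf4l2 were chosen after their values were seen.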

How the data were processed

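Per the submitters' processing notes, the authors worked with FastQC, HISAT, StringTie and DESeq2 and the builds GRCm38 and mm10. Neither version, strand setting nor annotation is stated there. The table the authors deposited holds estimated counts per gene symbol, already whole numbers, for 24062 symbols, of which 22758 matched GENCODE M21 by symbol, 940 by synonym and 364 not. Members and gene lists were chosen with earlier results of these data known.

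Genes were filtered with filterByExpr, which kept 13482 genes and 99.97% of counts, scaled by TMM and tested with edgeR 4.0.16 (R 4.3.3; robust quasi-likelihood, 1 fit over the 4 groups, two-sided, Benjamini-Hochberg threshold 0.05), with the difference of sons and daughters as the interaction contrast. The fit was also run on simulated counts with known changes in exposed sons, drawn independently for each library. Those counts held no litters and no single deviating animals, so that run says nothing about such effects here. DESeq2 1.42.0, limma-voom (limma 3.58.1), other scalings and filters, thinning and leaving out each library were alternatives. CPM are TMM-scaled; log2 CPM for distances used a prior count of 2. Libraries held 19.4 to 32.2 M counts; the precision of each value is given by its SE or interval.

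Named were the 12 genes of largest difference in each direction with a mean of at least 1 CPM, filled by lowest p where too few passed (here all), up to 4 genes of lowest p per list, Esr1, Esr2, Gper1 and Esrrg, genes passing in opposite directions, and DESeq2's calls, with shares of at least 20% overlapped exon length or shared 31-base sequence. Some genes that this rule takes in are not reported here.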

Additional observations from a re-analysis of the deposited data

Results flagged for a closer look

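In groups of 4 libraries, the lowest or highest library was compared with the rest: it was singled out where its gap to the nearest other exceeded Dixon's 95% critical share of the group's range. For independent, normally distributed values, chance would single out about 1 in 20 groups. Of 500 groups, from 95 genes and the gene lists, 45 (9%) were singled out, 7 of them for exposed son 12 and 6 for control daughter 1. The 9% cannot be compared with that rate. The genes were not chosen at random, and a group where all libraries but 1 share a value is singled out however small the gap. Whether outlying libraries were in excess was therefore not tested.

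Exposed daughter 1 stood apart from its group in Slc40a1 (232 CPM) and Esrrg (2.61 CPM). Exposed daughter 14 stood apart from its group in Pemt (173 CPM), Per2 (21.9 CPM) and Car1 (5.28 CPM). Exposed daughter 8 stood apart from its group in Serpina3k (3580 CPM) and Gm8898 (3.23 CPM). Exposed daughter 9 stood apart from its group in Cyp4a12b (0.0593 CPM). Control daughter 1 stood apart from its group in Med12l (10.7 CPM), Ces1c (2970 CPM), Myc (11 CPM), Slc22a18 (34.2 CPM), Ehhadh (3590 CPM) and Utp14b (9.18 CPM). Control daughter 17 stood apart from its group in Cyp4a12b (1.69 CPM) and Gm7030 (8.89 CPM). Control daughter 18 stood apart from its group in S100a8 (5.76 CPM) and Gm8898 (5.36 CPM). Control daughter 4 stood apart from its group in Hdac1 (10.1 CPM), Mup6 (21.1 CPM) and Scd3 (20.9 CPM). Exposed son 12 stood apart from its group in Bcmo1 (7.32 CPM), Ccdc66 (6.52 CPM), Kif20a (0.625 CPM), Gm11127 (8.53 CPM) and Car1 (1.61 CPM). Exposed son 3 stood apart from its group in Apoe (18400 CPM) and Gm7030 (0 CPM). Exposed son 4 stood apart from its group in Scd3 (147 CPM). Control son 10 stood apart from its group in Apoc1 (4020 CPM) and Mup6 (162 CPM). Control son 3 stood apart from its group in Mt2 (28.8 CPM) and Evi2b (3.93 CPM). Control son 7 stood apart from its group in Uroc1 (328 CPM) and Gm11127 (7.63 CPM).

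Among list medians, given as log2 distance from the control mean of the same sex, the libraries singled out were male-biased liver genes in exposed daughter 1 (-0.15), male-biased liver genes in control son 7 (0.12), female-biased liver genes in control daughter 4 (-0.21), female-biased liver genes in control son 7 (0.03), fatty acid and triglyceride synthesis in exposed son 12 (-0.16), fatty acid oxidation and PPAR alpha targets in exposed daughter 1 (-0.34), immediate early genes in control son 2 (0.35), iron and heme in exposed son 12 (-0.04), imprinted genes in exposed son 15 (-0.26) and proteasome in exposed daughter 8 (0.07). Several of these genes are at 0 in most libraries, as the report gives. What sets these libraries apart was not tested.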

How the results depend on the processing

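The count of genes passing for sons minus daughters was 0 in each direction under DESeq2's size factors, upper quartile scaling, both filters, the non-robust prior, thinning, and without the 2 libraries of lowest weight, an alternative chosen after seeing the data. DESeq2 called 16 higher and 20 lower and limma-voom 1 lower; leaving out 1 library gave 0 higher and 0 to 1 lower. Leaving out 1 library gave 621 to 1102 rises and 699 to 1208 falls in sons, and 1032 to 1454 and 1070 to 1496 in daughters. Signs turned for differences near 0: Nr1i2 lay between -0.17 and 0.06 and Esr1 between -0.14 and 0.03 with single libraries left out, and Esrrg between -0.32 and 0.25, with 0.02 under DESeq2 size factors, upper quartile scaling, DESeq2 and limma-voom, 0 with a mean of at least 1 CPM and 0.01 thinned. Scd3 was -1.66 by limma-voom and -2.29 without exposed son 4, with up to 11.33 without other libraries. Among lists, growth hormone signalling ran from -0.01 (without exposed son 4) to 0.31, lipoproteins from -0.16 to 0.01 (without exposed daughter 14), with 0 without exposed son 12, and male-biased genes -0.03 without both low-weight libraries. The cause was not tested. Scalings and filters moved the median difference of all genes by at most 0.021, thinning by 0.034 and single left-out libraries by at most 0.042. Of the named genes' values, 3728 stayed on their side, 39 passed only under an alternative and 27 turned sign. No paired analysis was possible because the labels give no pairing of exposed and control animals. Low genes were the least resolved: under 1 CPM, 2.27% of intervals lay within 2-fold.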
